A study of Mus musculus with 61 samples.

Results

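Skeletal muscle RNA of the NOD strain was compared gene by gene with that of the B6 strain, both on the same diet. The members were every library whose title begins with NOD or B6, which gave 7 NOD and 8 B6 libraries, 15 of the 61 in a study of 8 inbred mouse strains. NOD is an inbred strain in which the immune system destroys the insulin-producing cells of the pancreas, and B6 is the common laboratory strain used as a reference in mouse genetics. The mice were sensitised on a high-fat, high-sugar diet, and the diet label was 45percent fat in every library. The labels named no genotype other than the strain and gave no sex, age or batch. Nothing in the labels states that each library is its own mouse, and p-values below therefore reflect only how these libraries vary, which may in part be technical.

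The diabetes of NOD mice depends on T and B lymphocytes and on the class II molecules of the major histocompatibility complex (MHC), which present peptides to helper T cells. NOD carries its own MHC haplotype and a set of other susceptibility loci, several of which hold genes of the interferon and antigen receptor pathways. Muscle is the main site of insulin-driven glucose uptake, and its fibres burn fuel in mitochondria through the citric acid cycle and oxidative phosphorylation, whose subunits come from nuclear and mitochondrial genes. Interferons switch on a defined set of antiviral genes, many of which carry a short shared promoter element.

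Depth overlapped between the strains. Total counts ran from 23.8 M to 37 M (M, megareads) in NOD and from 19.2 M to 46.1 M in B6, and 5 technical measures (depth, genes detected, and the shares of mitochondrial genes, of the 20 top genes and of the ribosomal gene Rn18s-rs5) each had an adjusted p of 0.777 in an exact permutation test. The muscle label was borne out by 20 of 20 defining muscle genes being detected, with a summed level of 226127 to 248792 CPM (read counts scaled to library size, with TMM) in NOD and 198805 to 285256 CPM in B6. In library B6_5, Rn18s-rs5 held 46.3% of the counts, against at most 9.11% in the other B6 libraries. In libraries B6_1 and B6_6, 22 lymphocyte markers summed to 505 and 195 CPM, against 17.6 to 59.2 CPM in the other 6 B6 libraries and 48.3 to 137 CPM in NOD. The same 2 libraries held 114 and 53 CPM of 7 lymph node and thymus stroma markers, against 15.8 to 22.7 CPM in the other B6 libraries and 18.2 to 24 CPM in NOD. Fits without these libraries are given below for the gene groups whose counts they moved. The summed level of 8 erythrocyte markers ran from 327 to 602 CPM in NOD and from 137 to 297 CPM in B6, without overlap. Hepatocyte markers varied within both strains (97.6 to 2716 CPM in NOD, 113 to 3569 CPM in B6) and keratinocyte markers likewise (12.6 to 146 and 14.9 to 236 CPM), and 0 of the 19 and 10 markers were called by edgeR, with 0 at an unadjusted p below 0.05 and 0 by DESeq2. Xist, a female transcript, was high in libraries 1 to 4 of both strains, and the Y-linked Ddx3y was high in the others, so the sexes were spread over both groups. B6_5 and B6_6 held 23.6 and 30.9 CPM of Xist beside 85.3 and 74.0 CPM of Ddx3y.

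**Figure D1:**
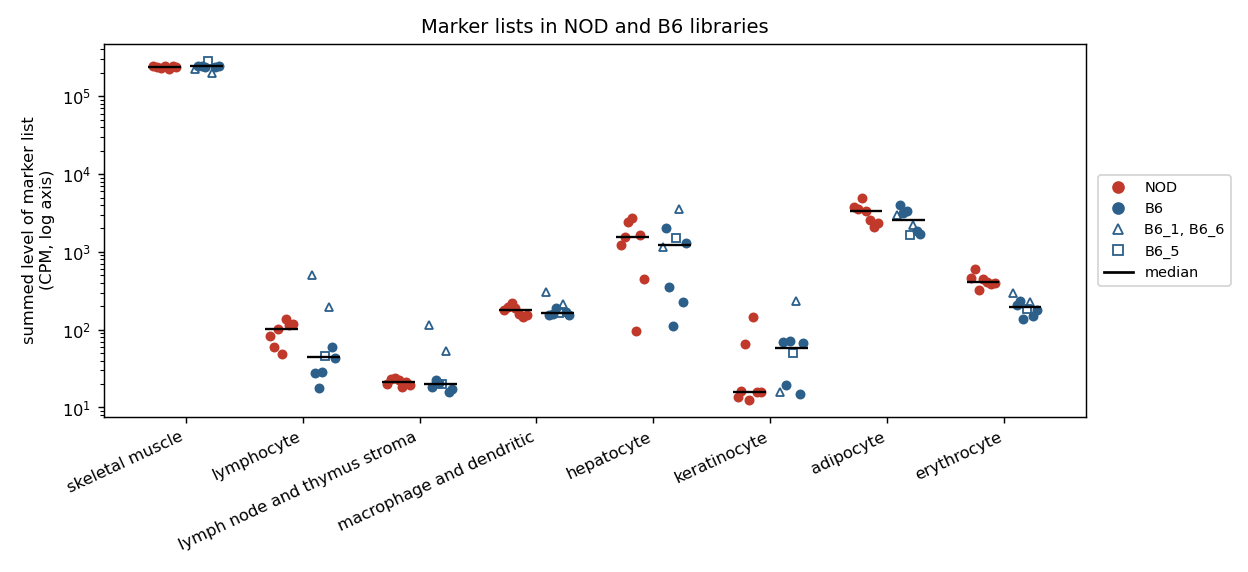
Summed level of 8 marker lists (CPM, log axis) in each of the 7 NOD and 8 B6 libraries; points are libraries and black lines medians. B6_1 and B6_6 (triangles) lie above every other library in lymphocyte and lymph node markers, at 505 and 195 CPM for lymphocytes, while the muscle sums of all 15 libraries lie between 198805 and 285256 CPM.

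Of 16682 genes tested with edgeR's quasi-likelihood test, 2719 differed between NOD and B6 at an adjusted p (Benjamini-Hochberg) below 0.05, or 16.3%. Such genes are called here. NOD was higher for 1251 of them (7.5% of the genes tested) and lower for 1468 (8.8%), and the median difference over all genes was -0.02 log2. A difference of at least 1 log2 unit was reached by 929 genes (5.57%), 313 that were higher (1.88%) and 616 that were lower (3.69%). The libraries of the strains did not overlap for 1070 genes (6.41%). For 594 of them all 7 NOD libraries lay above all 8 B6 libraries (3.56%), and for 476 they lay below (2.85%). Without B6_5 the called genes numbered 2512 (15.1%; 7.15% higher and 7.93% lower). Without B6_1 and B6_6 they numbered 2117 (12.6%), of which 1977 were also called with all libraries, none in the opposite direction.

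Interferon-stimulated genes were lower in NOD muscle. Of 34 tested, 26 were called lower and 0 higher, beside 8.8% and 7.5% of all genes, with a median difference of -0.89 log2. In 9 of them every NOD library lay below every B6 library, as in 2.85% of all genes. Most had few counts, and the list's summed level had a median of 113 CPM in NOD and 160 CPM in B6. With a filter of at least 5 CPM in at least 7 of these libraries, 11 members were tested. Of these 6 were called lower (median -0.42 log2), beside 862 of 9199 genes. With limma on the deposited stabilised values, 25 of 34 were lower (median -0.37 log2). In bulk muscle, fewer cells that express a gene and less RNA per cell cannot be told apart.

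Rsad2, which encodes the antiviral enzyme viperin (chromosome 12, 26442753 to 26456452, GRCm38), ran from 0.832 to 1.75 CPM in NOD (median 1.33) and from 3.91 to 7.78 CPM in B6 (median 4.72). The groups did not overlap, and NOD was lower by 1.86 ± 0.39 log2 (SE, adjusted p = 0.000296, edgeR). Usp18, a protease that removes ISG15 from proteins (chromosome 6, 121245906 to 121270917), ran from 0.351 to 0.792 CPM in NOD and from 1.19 to 3.22 CPM in B6. Here too the groups were apart, with a difference of -1.61 ± 0.24 log2 (SE, adjusted p = 6.67e-07). Ifih1, which encodes the RNA sensor MDA5 and lies in a diabetes locus (chromosome 2, 62595798 to 62646255), ran from 2.76 to 4.18 CPM in NOD and from 5.14 to 7.37 CPM in B6, again without overlap (-0.85 log2, adjusted p = 0.00164, edgeR).

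The largest difference in the list was that of Ifit3b, an interferon-induced protein with tetratricopeptide repeats (chromosome 19, 34607970 to 34613401), which had 0.681 ± 0.157 CPM in NOD (SD, n = 7) and 4.14 ± 1.03 CPM in B6 (SD, n = 8). Ifit3b has a near-identical neighbour, Ifit3, and with the counts of both added NOD remained lower by 1.82 ± 0.27 log2 (SE, adjusted p = 3.74e-07, edgeR). Mx1, an antiviral GTPase, showed -2.56 log2 (adjusted p = 0.000297, edgeR), but with its copy Mx2 added the difference was -0.85 log2 and no longer called (adjusted p = 0.0781). The 8 members that were not called were Ifi27, Ifi27l2a, Ifi35, Irf9, Oasl1, Mx2, Bst2 and Eif2ak2, with differences from -0.92 log2 (Oasl1) to 0.64 log2 (Ifi27l2a).

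The guanylate-binding proteins and immunity-related GTPases, which attack the vacuoles of intracellular pathogens, moved the same way. Of 21 tested, 13 were called lower and 0 higher, beside 8.8% and 7.5% of all genes, with a median of -0.94 log2. Igtp (chromosome 11, 58199556 to 58207591) ran from 2.26 to 4.09 CPM in NOD and from 8.09 to 12.3 CPM in B6, with a difference of -1.69 ± 0.24 log2 (SE, adjusted p = 2.53e-07, edgeR). Irgm2, whose annotated span overlaps that of Igtp on the same strand so that reads could be shared (chromosome 11, 58199618 to 58222782), ran from 2.77 to 8.86 CPM in NOD and from 12.4 to 27.6 CPM in B6. Gbp3 (chromosome 3, 142560026 to 142573209) had 1.39 ± 0.426 CPM in NOD (SD, n = 7) and 5.21 ± 1.48 CPM in B6 (SD, n = 8). None of these 3 genes overlapped between the strains. Gvin1, a giant interferon-inducible GTPase with 3 copies, was lower by 2.69 log2 alone and by 1.95 log2 with the 2 copies that were measured added (adjusted p = 1.47e-08, edgeR).

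The counts were smaller without the lymphocyte-rich libraries B6_1 and B6_6, where 12 interferon-stimulated genes were called lower and 1 higher, beside 6.25% and 6.38% of all genes, and 6 GTPases lower. The list medians were then -0.67 and -0.68 log2. Without B6_5 as well, 10 interferon-stimulated genes and 4 GTPases were called lower, beside 5.53% of all genes. In a fit of the 13 remaining NOD and B6 libraries alone, 17 of 31 interferon-stimulated genes were lower and 1 was higher, and 10 of 18 GTPases were lower, beside 8.17% of all genes called lower and 7.78% higher. Ifih1, Rsad2, Usp18, Igtp, Irgm2 and Gbp3 stayed below an adjusted p of 0.05 in both of these fits. Another fit of all 61 libraries took the summed lymphocyte, hepatocyte and keratinocyte markers as covariates. It called 26 interferon-stimulated genes (median -0.93 log2) and 12 GTPases (median -1.10 log2) lower, beside 1632 of 16682 genes. No member of either list was called higher. In that fit 14 of 21 lymphocyte markers were still called lower. The part of lymphocyte RNA in these differences was not tested further.

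Promoter sequences are shown for 5 genes of these families that carry the interferon-stimulated response element, because the genes were lower together. RefSeq (GRCm38.p6) gave upstream windows for 18 of the 26 interferon-stimulated genes called lower and for 9 of the 13 GTPases. The element was searched as GAAA, any 2 bases and GAAA, on both strands in the 250 bases before each gene start. It was found for 9 of the 18 genes (50%) and for 8 of the 9 GTPases (88.9%), against 3.46% of all 27025 genes with a window. Among the genes tested here that had a window, the share was 3.19%. Among all tested members of the 2 lists, called or not, it was 43.5% and 83.3%. The element was thus more frequent in both families than among all genes. The members called lower are part of those tested, so these shares cannot show whether the element sets them apart. The 160 bases before the start follow, 5′ to 3′ on the gene's strand, with matches in capitals.
Rsad2 (chr12:26456453-26456612, minus strand): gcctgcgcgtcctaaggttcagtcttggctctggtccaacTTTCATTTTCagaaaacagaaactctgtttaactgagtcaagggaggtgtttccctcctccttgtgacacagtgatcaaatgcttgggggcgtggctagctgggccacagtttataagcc
Ifit1 (chr19:34640729-34640888, plus strand): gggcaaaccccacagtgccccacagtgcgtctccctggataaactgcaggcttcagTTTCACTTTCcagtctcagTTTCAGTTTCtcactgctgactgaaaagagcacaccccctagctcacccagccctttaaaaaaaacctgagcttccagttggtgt
Ifit3 (chr19:34583369-34583528, plus strand): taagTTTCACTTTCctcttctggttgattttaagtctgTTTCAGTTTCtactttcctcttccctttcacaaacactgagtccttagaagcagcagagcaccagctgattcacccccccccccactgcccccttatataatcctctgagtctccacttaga
Igtp (chr11:58199396-58199555, plus strand): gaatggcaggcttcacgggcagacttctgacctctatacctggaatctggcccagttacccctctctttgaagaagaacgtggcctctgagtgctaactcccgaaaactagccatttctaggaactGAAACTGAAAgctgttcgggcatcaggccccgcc
Irgm2 (chr11:58214817-58214976, plus strand): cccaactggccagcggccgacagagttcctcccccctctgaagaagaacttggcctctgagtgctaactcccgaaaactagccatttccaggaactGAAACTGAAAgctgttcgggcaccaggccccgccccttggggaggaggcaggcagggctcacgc
Ifit1 and Ifit3 each hold 2 matches, 104 and 85 bases before the start of Ifit1 and 156 and 122 bases before that of Ifit3. Ifit1 (chromosome 19, 34640871 to 34650009) ran from 0.753 to 1.58 CPM in NOD and from 1.6 to 3.45 CPM in B6, and Ifit3 from 1.03 to 2.30 CPM and from 2.25 to 5.20 CPM. The call of Ifit1 ended without B6_1 and B6_6 (adjusted p = 0.0577, edgeR). The window of Irgm2 precedes its RefSeq start, which lies inside the annotated span given above, downstream of that span's own start. The windows come from the reference genome, and the NOD sequence was not analysed here. Ifih1 and Oasl2, both lower in NOD, hold no match in this window.

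Class II genes of the MHC were also lower in NOD. Of 12 tested, 9 were called lower and 0 higher, beside 8.8% and 7.5% of all genes, with a median of -2.08 log2. In 6 of them all NOD libraries lay below all B6 libraries, as in 2.85% of all genes. H2-Ab1, the beta chain of the class II molecule I-A (chromosome 17, 34263209 to 34269418), ran from 2.55 to 7.52 CPM in NOD (median 4.09) and from 10.8 to 66.1 CPM in B6 (median 12.8). The difference was -2.31 ± 0.57 log2 (SE, adjusted p = 0.00238, edgeR). Its partner chain H2-Aa (chromosome 17, 34282744 to 34287827) ran from 3.89 to 12.5 CPM in NOD and from 14.7 to 91.2 CPM in B6. H2-Eb1, the beta chain of I-E (chromosome 17, 34305877 to 34316199), ran from 3.07 to 9.15 CPM in NOD and from 10.7 to 64.0 CPM in B6, and Cd74, the invariant chain that escorts class II molecules (chromosome 18, 60803848 to 60812646), from 9.45 to 21.9 CPM and from 31.4 to 175 CPM. All 4 genes were apart in the 2 strains, and the highest B6 value of each came from B6_1. GRCm38 is a build of a B6 substrain, and how reads of the NOD MHC haplotype mapped to it was not examined.

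The class II calls depended on the lymphocyte-rich libraries. Without B6_1 and B6_6 the fit over all strains called 0 of the 12 genes by edgeR, of which 4 were lower at an unadjusted p below 0.05, with adjusted p of 0.0756 for H2-Ab1, 0.223 for H2-Aa, 0.0846 for H2-Eb1 and 0.163 for Cd74. The median was -1.22 log2, and 6.25% of all genes were called lower in that fit. With all libraries and the marker sums as covariates, 9 were called lower (median -2.03 log2), beside 1632 of 16682 genes. In the fit of the 13 remaining NOD and B6 libraries alone, whose spread does not include that of the other strains, 5 of 8 genes were called lower and 1, Ctss, higher, beside 8.17% and 7.78% of all genes. There the differences were -1.49 log2 for H2-Ab1 (adjusted p = 0.000129, edgeR), -1.22 for H2-Aa (0.00124), -1.25 for H2-Eb1 (0.00114) and -1.36 for Cd74 (0.000133).
The genes H2-DMb2, H2-Oa and H2-Ob, which adjust peptide loading, reached 12.1, 3.59 and 15.3 CPM in 1 B6 library but had B6 medians of 0.433, 0.0368 and 0.422 CPM, and without B6_1 and B6_6 their adjusted p were 0.287, 0.831 and 0.412. Ciita, the master regulator of class II transcription (chromosome 16, 10488178 to 10527564), had a median of 0.584 CPM in NOD and 1.24 CPM in B6. It was called with all libraries (-2.50 log2, adjusted p = 0.0114, edgeR) and not without B6_1 and B6_6 (-0.98 log2, adjusted p = 0.444).

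Class II promoters share a motif called the Y box, which binds NF-Y. Searched as CTGATTGG on both strands, it was found for 3 of the 6 class II genes called lower that had a window, against 4.43% of all genes. It was found for 3 of the 8 class II genes tested that had a window, called or not, and for 6.02% of all tested genes. The promoters of the alpha chain gene H2-Aa and of the beta chain gene H2-Eb1 are shown with the Y box in capitals.
H2-Aa (chr17:34287824-34287983, minus strand): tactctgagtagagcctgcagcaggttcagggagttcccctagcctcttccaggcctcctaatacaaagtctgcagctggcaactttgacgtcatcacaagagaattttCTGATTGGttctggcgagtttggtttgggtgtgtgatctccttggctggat
H2-Eb1 (chr17:34305707-34305866, plus strand): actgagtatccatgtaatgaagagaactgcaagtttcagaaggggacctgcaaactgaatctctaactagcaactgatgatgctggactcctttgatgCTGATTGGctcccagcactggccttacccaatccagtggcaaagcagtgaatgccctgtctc
The box begins 51 bases before the start of H2-Aa and 62 bases before that of H2-Eb1.

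Lymphocyte markers were called lower in NOD with all libraries and not without those 2. Of 21 tested, 15 were lower, beside 8.8% of all genes, with a median of -4.40 log2, and 0 had groups that did not overlap. Ptprc, which encodes the leukocyte antigen CD45 (chromosome 1, 138062861 to 138175708), ran from 2.93 to 5.15 CPM in NOD and from 3.15 to 66.3 CPM in B6. Without B6_1 and B6_6, 0 lymphocyte markers were called lower and 1 higher, with a median of -0.20 log2, and the difference of Ptprc was -0.20 log2 (adjusted p = 0.914, edgeR). Igkc, the immunoglobulin kappa constant region, changed from -5.77 to 0.01 log2. Coro1a, an actin regulator of leukocytes, had a B6 median of 2.49 CPM and a maximum of 40.5 CPM, against 1.49 to 2.75 CPM in NOD.
Of 23 macrophage and dendritic markers, 3 were lower in NOD and 0 higher, beside 8.8% and 7.5% of all genes. Ccr2, the receptor that brings monocytes into tissue (chromosome 9, 124101950 to 124113557), ran from 0.555 to 1.73 CPM in NOD and from 2.48 to 6.07 CPM in B6, without overlap (-1.60 ± 0.45 log2, SE, adjusted p = 0.00744, edgeR). It was called without B6_1 and B6_6 too (-1.34 log2, adjusted p = 0.0481). Lyz1, a lysozyme, was lower by 2.01 log2, but with its copy Lyz2 added the difference was -0.29 log2 (adjusted p = 0.597).

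**Figure D2:**
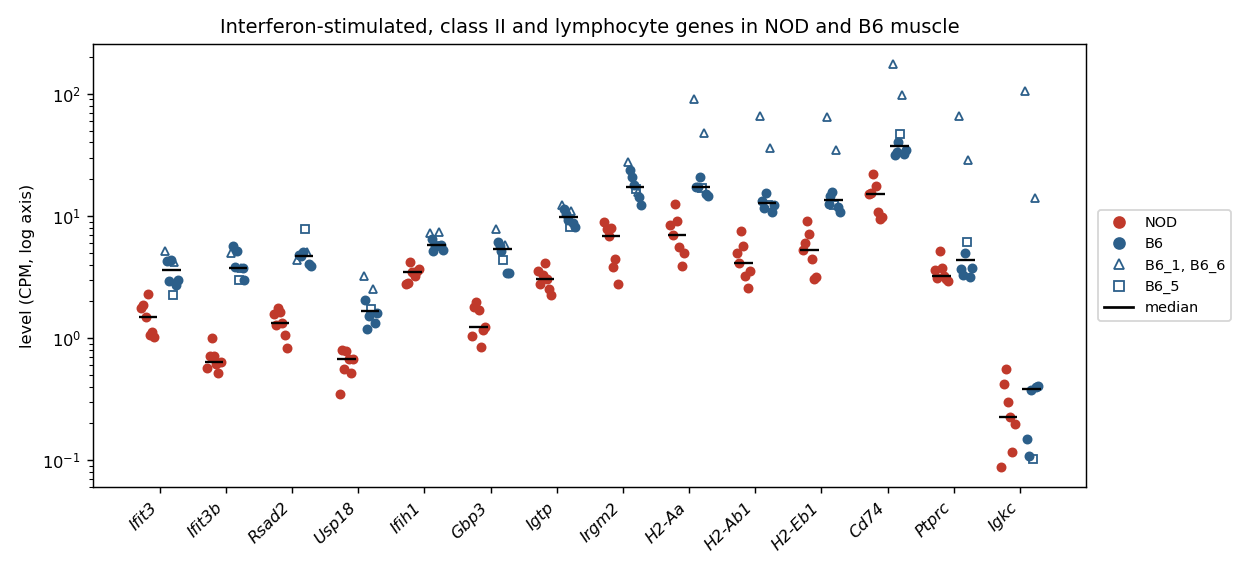
Level (CPM, log axis) of 14 immune genes in each of the 7 NOD and 8 B6 libraries; points are libraries and black lines medians. For Rsad2, Usp18, Igtp and the 4 class II genes all NOD points lie below all B6 points, whereas for Ptprc and Igkc B6_1 and B6_6 stand far above overlapping groups.

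Genes of class I presentation, which shows peptides to cytotoxic T cells, were mixed. Of 26 tested, 12 were called lower and 2 higher, beside 8.8% and 7.5% of all genes, with a median of -0.46 log2. Without B6_1 and B6_6, 5 were lower and 3 higher, beside 6.25% and 6.38%. H2-K1, a classical class I heavy chain with a near-identical relative H2-D1 (chromosome 17, 33996017 to 34000333), ran from 13.3 to 33.4 CPM in NOD and from 48.9 to 144 CPM in B6. It remained lower without those libraries (-1.48 log2, adjusted p = 3.62e-05, edgeR). The counts of H2-D1 were not added here, and how reads of the NOD MHC haplotype mapped to GRCm38 was not examined. Erap1, which trims peptides for class I (chromosome 13, 74639872 to 74691875), had 18 ± 2.13 CPM in NOD (SD, n = 7) and 23.1 ± 1.81 CPM in B6 (SD, n = 8; -0.36 log2, adjusted p = 1.71e-05 by edgeR). H2-Q7, a nonclassical class I chain, was lower by 2.54 log2 and by 2.37 log2 with its copies H2-Q5 and H2-Q6 added. Tap1, a subunit of the peptide transporter, and Nlrc5, the transactivator of class I genes, were called lower with all libraries (-1.39 and -1.36 log2) but not without B6_1 and B6_6 (adjusted p = 0.111 and 0.431, edgeR).

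Nuclear genes of oxidative phosphorylation were higher in NOD muscle. Of 72 tested, 50 were called higher and 0 lower, beside 7.5% and 8.8% of all genes, and the median difference was 0.28 log2. In 28 of them every NOD library lay above every B6 library, as in 3.56% of all genes. The differences were small, from -0.08 to 0.60 log2, and 70 of 72 were positive. Called members came from each complex: 21 of 36 in complex I, 2 of 4 in complex II, 8 of 9 in complex III, 7 of 11 in complex IV, 11 of 11 in ATP synthase, and cytochrome c. The summed level of the list ran from 16397 to 19076 CPM in NOD and from 11545 to 16070 CPM in B6, the lowest value being that of B6_5.

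Cox6a2, the muscle form of a cytochrome c oxidase subunit (chromosome 7, 128205435 to 128206387), ran from 450 to 538 CPM in NOD (median 487) and from 286 to 387 CPM in B6 (median 335). The groups did not overlap, with a difference of 0.56 ± 0.06 log2 (SE, adjusted p = 4.13e-10, edgeR). Ndufc2, an accessory subunit of complex I (chromosome 7, 97400003 to 97407802), ran from 54.8 to 65.7 CPM in NOD and from 31.1 to 44.1 CPM in B6 (0.60 ± 0.09 log2, SE, adjusted p = 2.86e-07). Atp5e, the epsilon subunit of ATP synthase, ran from 181 to 219 CPM in NOD and from 95.4 to 159 CPM in B6. Sdhc, a membrane anchor of complex II, had 242 ± 13.5 CPM in NOD (SD, n = 7) and 185 ± 15.9 CPM in B6 (SD, n = 8; 0.39 log2, adjusted p = 6.83e-06 by edgeR). For Uqcrfs1, the Rieske iron-sulfur protein of complex III, NOD lay between 297 and 355 CPM and B6 between 204 and 281 CPM.

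Fewer genes were called without the libraries that stood apart, and 0 were called lower. Without B6_5, 40 of the 72 genes were called higher, beside 7.15% of all genes, and without B6_1 and B6_6 39 were, beside 6.38%. Without all 3 libraries 22 were called higher and 0 lower, beside 5.27% and 5.53% of all genes, with a median of 0.18 log2, and 8 of the 11 complex IV genes then had a positive difference in place of 11. In the fit of the 13 NOD and B6 libraries alone without B6_1 and B6_6, 31 were higher and 0 lower.

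**Figure D3:**
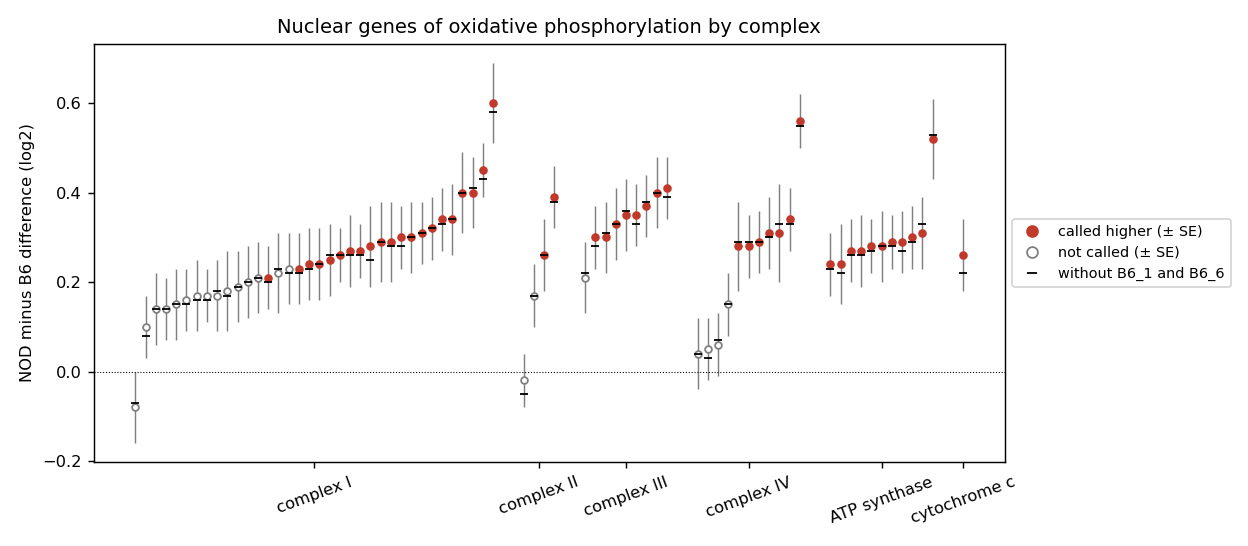
NOD minus B6 difference (log2, ± SE) of the 72 nuclear genes of oxidative phosphorylation, grouped by complex, with the value without B6_1 and B6_6 as a black dash. Filled points are the 50 genes called higher; nearly all values lie between 0 and 0.6 log2, and the dashes stay close to the points.

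The genes of the mitochondrial genome did not follow. Of 13 tested, 0 were called higher and 3 lower, beside 7.5% and 8.8% of all genes, with a median of -0.12 log2. The 3 were subunits of complex I: mt-Nd3 (-0.35 log2), mt-Nd5 (-0.36 log2) and mt-Nd6 (-0.37 log2). mt-Nd5 ran from 7037 to 8570 CPM in NOD and from 6865 to 12565 CPM in B6, so the groups overlapped (adjusted p = 0.0101, edgeR). mt-Nd5 and mt-Nd6 overlap each other on opposite strands, so reads could be shared between them.

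Citric acid cycle genes were higher as well, with 12 of 19 called higher and 2 lower, beside 7.5% and 8.8% of all genes, and a median of 0.28 log2. With B6_1 and B6_6 left out, 10 were higher and 1 lower (median 0.25 log2), and without B6_5 as well 8 and 2 (median 0.20 log2). Idh3b, a subunit of NAD-dependent isocitrate dehydrogenase (chromosome 2, 130279309 to 130284547), ran from 298 to 332 CPM in NOD and from 179 to 264 CPM in B6, without overlap (0.39 ± 0.06 log2, SE, adjusted p = 1.81e-06, edgeR). Suclg1, the alpha subunit shared by both succinyl-CoA ligases, had 204 ± 18.4 CPM in NOD (SD, n = 7) and 159 ± 14 CPM in B6 (SD, n = 8). The 2 genes that were lower were Suclg2, the beta subunit of the GTP-forming succinyl-CoA ligase, at 42.1 to 51.7 CPM in NOD and 56.5 to 78.1 CPM in B6 (-0.53 log2, adjusted p = 1.25e-05), and Idh2, the NADP-dependent isocitrate dehydrogenase (-0.31 log2, adjusted p = 0.0368, and 0.0781 without B6_1 and B6_6). Suclg2 and 19 of the 72 oxidative phosphorylation genes have near-identical copies, mostly predicted genes, so reads could be split between them. Ppargc1a, the coactivator that drives mitochondrial genes (chromosome 5, 51454250 to 51567726), ran from 109 to 158 CPM in NOD and from 31.2 to 129 CPM in B6 (0.92 ± 0.29 log2, SE, adjusted p = 0.0194, edgeR). Its call ended without B6_1 and B6_6 (adjusted p = 0.081). Fatty acid oxidation had 2 of 25 genes called higher, Echs1 and Acadl, and 0 lower, so its 8% called higher was close to the 7.5% of all genes.

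In the redox list 11 of 34 genes were called higher and 2 lower, beside 7.5% and 8.8% of all genes. For 8 of the higher ones all NOD libraries lay above all B6 libraries, as in 3.56% of all genes. Without B6_1, B6_5 and B6_6, 7 were higher and 2 lower, beside 5.27% and 5.53%. Nnt, the mitochondrial transhydrogenase that regenerates NADPH and is partly deleted in a common B6 substrain (chromosome 13, 119335448 to 119408997), ran from 126 to 170 CPM in NOD and from 40 to 71.1 CPM in B6. The difference was 1.58 ± 0.12 log2 (SE, adjusted p = 1.71e-16, edgeR). Prdx2, a peroxiredoxin that is also abundant in red blood cells, ran from 77.5 to 91.8 CPM in NOD and from 44.2 to 66.4 CPM in B6, and Sod2, the mitochondrial superoxide dismutase, from 328 to 410 CPM and from 201 to 284 CPM. Glrx, glutaredoxin, was higher by 1.02 ± 0.12 log2 (SE, adjusted p = 7.98e-10). The exceptions were Nqo1, a quinone reductase, at 9.67 to 11.5 CPM in NOD and 14.9 to 23 CPM in B6 (-0.78 log2, adjusted p = 3.29e-08), and Gstm1, a glutathione transferase (-0.38 log2). Prdx2, Sod2 and Gstm1 have near-identical copies, whose counts were not added here. The summed erythrocyte level did not overlap between the strains either, and its part in the Prdx2 difference was not tested.

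Contractile and excitation genes differed in a few members. Of the 20 defining muscle genes, 3 were called higher and 0 lower, beside 7.5% and 8.8% of all genes. Myh1, the myosin heavy chain of type IIx fibres (chromosome 11, 67200052 to 67224575), ran from 6406 to 8163 CPM in NOD and from 3584 to 5190 CPM in B6, and myoglobin (Mb, chromosome 15, 77015489 to 77050670) from 2297 to 2864 CPM and from 1161 to 1841 CPM. Both were apart in the strains, with differences of 0.71 ± 0.12 and 0.73 ± 0.15 log2 (SE). Among slow fibre genes 2 of 19 were higher and 3 lower, against the same shares of all genes. Casq2, the calsequestrin of slow and cardiac muscle, was lower by 1.53 ± 0.26 log2 (SE, adjusted p = 7.16e-06, edgeR), at 9.57 to 15.7 CPM in NOD and 26 to 56.8 CPM in B6. The slow light chains Myl2 and Myl3 were lower by 0.72 and 0.64 log2, with groups that overlapped and calls that ended without B6_1 and B6_6 (adjusted p = 0.0753 and 0.0522). Of the genes linked to denervation and the synapse, 4 of 18 were higher and 0 lower, beside 7.5% and 8.8% of all genes: the stress gene Gadd45a, the myogenic factor Myog and the acetylcholine receptor subunits Chrnb1 and Chrne. The list's median was 0.01 log2, with 9 positive and 9 negative differences. Without B6_1 and B6_6, 4 were higher, and without B6_5 as well 2 were, beside 6.38% and 5.27% of all genes. Gadd45a ran from 30.9 to 91.8 CPM in NOD and from 5.82 to 17.9 CPM in B6 (1.91 ± 0.25 log2, SE, adjusted p = 3.15e-08), and Chrnb1 from 32.1 to 50.3 CPM and from 24.1 to 31.3 CPM.

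**Figure D4:**
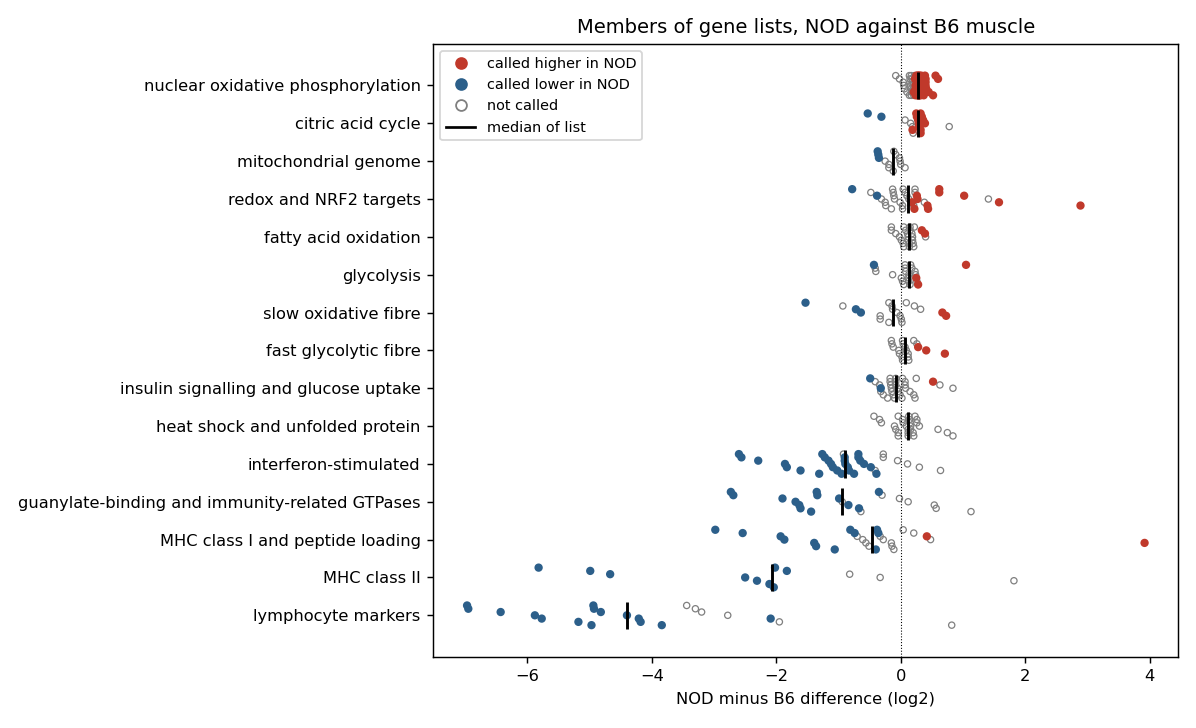
NOD minus B6 difference (log2) of each tested member of 15 gene lists; filled points are called, open points are not, and the black line is the list's median. Oxidative phosphorylation and citric acid cycle genes sit to the right of 0 with medians of 0.28, and interferon, GTPase and class II genes to the left with medians of -0.89, -0.94 and -2.08.

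Among the genes with the largest positive differences, Stk33 and Tmem132d were close to absent in B6. Stk33, a serine/threonine kinase (chromosome 7, 109279223 to 109439081), ran from 16.7 to 25 CPM in NOD and from 0 to 0.149 CPM in B6 (8.44 ± 0.67 log2, SE, adjusted p = 2.02e-15, edgeR). The highest mean of the other 6 strains was 2.21 CPM, in Cast. Tmem132d, a membrane protein gene (chromosome 5, 127781630 to 128433077), ran from 12.2 to 25.1 CPM in NOD and from 0 to 0.124 CPM in B6, and its mean reached 13.1 CPM in PWK. The size of these 2 fitted differences depends on the few B6 counts.

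Kbtbd12 and Mss51 were abundant genes with large differences. Kbtbd12, a kelch and BTB domain protein of muscle (chromosome 6, 88545114 to 88637950), had 191 ± 13.3 CPM in NOD (SD, n = 7) and 33.3 ± 3.18 CPM in B6 (SD, n = 8), a 2.52 ± 0.09 log2 difference with the largest F of all named genes (adjusted p = 5.6e-31, edgeR). The other 6 strain means ran from 147 to 191 CPM, so B6 was the lowest of the 8 strains and stood apart from all of them. Mss51, a mitochondrial protein gene of fast muscle (chromosome 14, 20482864 to 20496901), ran from 644 to 1157 CPM in NOD and from 86.3 to 211 CPM in B6 (2.51 ± 0.25 log2, SE, adjusted p = 6.2e-12). NOD had the highest mean of the 8 strains, and the other 6 ran from 149 to 776 CPM. Mettl21e, a muscle lysine methyltransferase (chromosome 1, 44204070 to 44218961), ran from 14.1 to 58.8 CPM in NOD and from 1.25 to 5.03 CPM in B6.

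Other genes higher in NOD had varied roles. Rbp7, a retinol-binding protein (chromosome 4, 149449687 to 149454978), ran from 8.64 to 14.2 CPM and from 1.24 to 2.71 CPM. Gapdh, the glycolytic enzyme often used as a reference gene, was higher by 1.05 ± 0.10 log2 (SE, adjusted p = 4.99e-13), at 825 to 1004 CPM in NOD and 368 to 573 CPM in B6, and by 1.04 log2 with the 25 copies that were measured added. Snph, Tmem37, Pla2g4e, Fgl2 and Plcl1 were higher by 1.68 to 3.07 log2, and in all 5 the groups were apart. Mt2, the metallothionein, was higher by 2.89 log2 (adjusted p = 0.00201), but its groups overlapped and 1 NOD library held 142 CPM.

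Among the genes lower in NOD, Pttg1 and Rab6b stood apart in B6 rather than in NOD. Pttg1, securin, an inhibitor of separase (chromosome 11, 43420250 to 43426251), had 0.962 ± 0.280 CPM in NOD (SD, n = 7) and 28.1 ± 2.26 CPM in B6 (SD, n = 8; -4.86 log2, adjusted p = 2.61e-23 by edgeR). The other 6 strain means ran from 0.339 to 0.962 CPM. Rab6b, a small GTPase of Golgi traffic (chromosome 9, 103111787 to 103185276), ran from 0.482 to 0.986 CPM in NOD and from 11.2 to 16.3 CPM in B6, and the other strain means from 0.166 to 0.697 CPM. For Actc1, cardiac actin (chromosome 2, 114047282 to 114053548), NOD ran from 2.98 to 18.9 CPM and was the lowest of the 8 strains, and B6 ran from 35.5 to 387 CPM. All 8 B6 libraries lay above NOD (-4.27 ± 0.62 log2, SE, adjusted p = 2.71e-07).

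Akr1e1, an aldo-keto reductase (chromosome 13, 4590757 to 4609174), ran from 1.20 to 2.83 CPM in NOD and from 9.49 to 14.2 CPM in B6. Pik3cd, the catalytic delta subunit of phosphoinositide 3-kinase that is best known in leukocytes (chromosome 4, 149649168 to 149702571), ran from 2.89 to 4.33 CPM in NOD and from 10.5 to 24.3 CPM in B6 (-2.04 ± 0.25 log2, SE, adjusted p = 1.98e-09, edgeR). NOD had the lowest mean of the 8 strains for both. Of the 6 further genes with the largest F, Metap1d, Desi1, Fut10 and Mtap were lower in NOD by 1.44 to 2.01 log2, and Wdfy1 and Mrpl15 higher by 1.37 and 1.00 log2. None of the 6 overlapped between strains. Lars2, a mitochondrial leucyl-tRNA synthetase, and mt-Rnr2, a mitochondrial ribosomal RNA, were called lower with B6_5, which held 164394 and 86982 CPM of them. Without B6_5 their differences were 0.13 and -0.19 log2 (adjusted p = 0.891 and 0.559, edgeR).

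**Figure D5:**
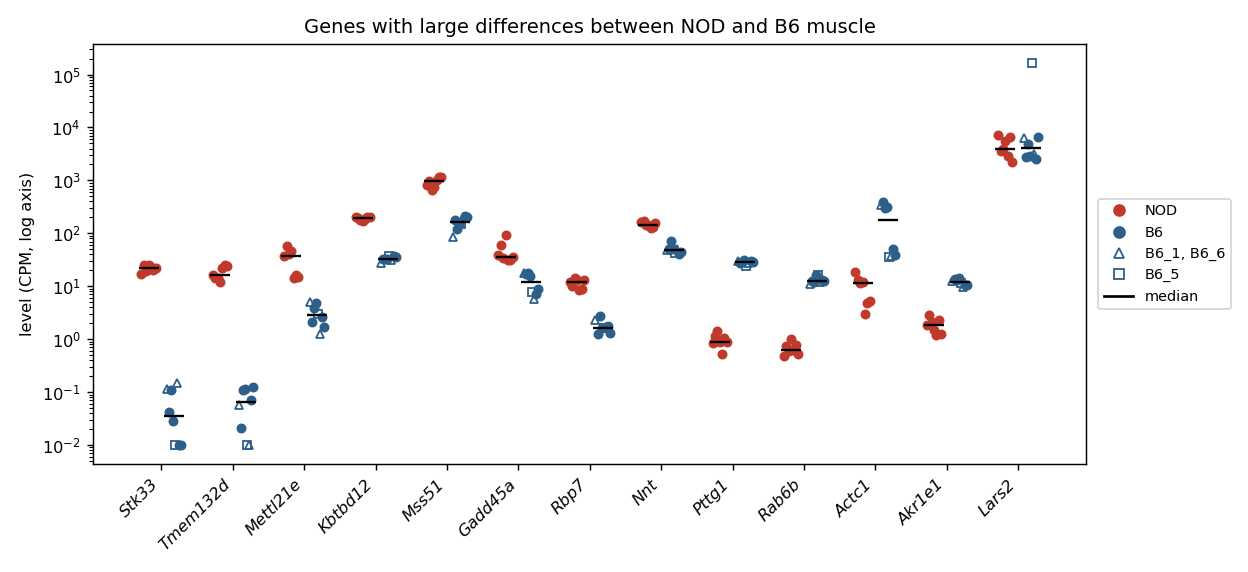
Level (CPM, log axis) of 13 genes with large differences in each of the 7 NOD and 8 B6 libraries; points are libraries, black lines medians, and a level of 0 is drawn at 0.01 CPM. The groups are apart for Stk33 through Akr1e1, and for Lars2 they overlap except for B6_5 at 164394 CPM.

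Of 23 tested genes of autoimmune diabetes loci, 1 was higher and 6 lower, beside 7.5% and 8.8% of all genes. Without B6_1 and B6_6, 1 was higher and 2 lower, beside 6.38% and 6.25%. The 2 that held were Ifih1, described above, and Fcgr2b, the inhibitory receptor for immunoglobulin G (chromosome 1, 170958617 to 170976547). Fcgr2b ran from 1.90 to 3.90 CPM in NOD and from 4.05 to 9.38 CPM in B6 (-1.13 ± 0.29 log2, SE, adjusted p = 0.00307, edgeR). Cd101, a glycoprotein of myeloid and T cells, was the member that was higher, at 0.323 to 0.834 CPM in NOD and 0 to 0.367 CPM in B6 (2.49 log2, adjusted p = 0.0164). Ctla4, the T cell checkpoint receptor, had a NOD median of 0 CPM and a B6 median of 0.144 CPM, and was not called without B6_1 and B6_6 (adjusted p = 0.317). B2m, the light chain of class I molecules, had medians of 52.5 and 78.5 CPM (adjusted p = 0.0594), and Ptpn2, Ptpn22, Il6st, Slc11a1 and Icos were not called.

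Of 14 genes with variants known among mouse strains, not only in NOD or B6, 5 were higher in NOD and 1 lower, beside 7.5% and 8.8% of all genes. The lower one was Mx1, whose call ended without B6_1 and B6_6 (adjusted p = 0.0674, edgeR). Ifi202b, an interferon-inducible gene that B6 is known to express poorly (chromosome 1, 173962568 to 173982744), ran from 1.54 to 3.18 CPM in NOD and from 0 to 0.307 CPM in B6 (5.15 ± 0.45 log2, SE, adjusted p = 6.31e-14, edgeR). It was the only called member of its cluster of 9 genes that was higher, and 3 were lower: Pyhin1, Mnda and Pydc3, which all have near-identical relatives in the cluster. With B6_1 and B6_6 left out, the cluster's median moved from -0.84 to -0.33 log2 and 2 were lower, with adjusted p of 0.0183 for Pyhin1, 0.00364 for Mnda and 0.208 for Pydc3 (edgeR). Dysf, the membrane repair protein dysferlin (chromosome 6, 84008590 to 84211060), ran from 118 to 234 CPM in NOD and from 61 to 84.7 CPM in B6. Glo1 and Cox7a2l were higher by 0.43 and 0.22 log2.

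Several genes with a near-identical copy differed strongly alone and less with the counts of the copies added. Hba-a1, an alpha globin gene, stood at 91.8 ± 15.5 CPM in NOD (SD, n = 7) and 0.670 ± 0.590 CPM in B6 (SD, n = 8), and the difference was 7.10 log2 alone and 1.20 log2 with Hba-a2 added (adjusted p = 0.000582, edgeR). Of 7 erythrocyte markers tested, 4 were higher and 0 lower, beside 7.5% and 8.8% of all genes. The histone gene Hist2h2aa2 had 5.72 log2 alone and 0.00 log2 with its copies, and its relative Hist2h2aa1 -3.06 and 0.30 log2. The ATP synthase gene Atp5g2 had 4.11 and 0.23 log2. The class I genes H2-T10 and H2-T22, copies of each other, had 3.92 and -2.98 log2 alone and 0.27 log2 together (adjusted p = 0.236). Erdr1 was lower by 2.83 log2, with a copy not used here.

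Pathways of insulin action, lipid synthesis and stress held few called genes. Of 32 genes of insulin signalling and glucose uptake, 1 was higher and 2 lower. Mtor, the kinase that links nutrients to growth (chromosome 4, 148448611 to 148557683), ran from 92.7 to 102 CPM in NOD and from 58.9 to 80.1 CPM in B6 (0.52 ± 0.08 log2, SE, adjusted p = 2.53e-07, edgeR). Akt2, the insulin-activated kinase of muscle and fat, had medians of 185 CPM in NOD and 238 CPM in B6 and did not overlap between strains (-0.32 ± 0.06 log2, SE, adjusted p = 6.58e-05), and Tbc1d4, its target in glucose transport, was lower by 0.49 log2 (adjusted p = 0.0347). Of 23 genes of fatty acid and triglyceride synthesis and 28 of heat shock and the unfolded protein response, 0 were called by edgeR, while 2 and 5 had an unadjusted p below 0.05 and DESeq2 called 1 and 0. Of 22 cholesterol genes, 0 were higher and 1, Mvd, lower (adjusted p = 0.0578 without B6_1 and B6_6, edgeR), of 18 genes of the PPAR and fasting response, 1 was higher, and of 19 clock genes, 1 was higher and 2 lower. In these lists the share called was at or below the 16.3% of all genes. Of 18 immediate early genes 2 were higher, Jun and Nr4a3, beside 7.5% of all genes, and the list's median was 0.38 log2.

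Among other cell type markers, adipocyte markers had 0 of 15 called by edgeR (1 at an unadjusted p below 0.05, 0 by DESeq2), endothelial markers 0 higher and 1 lower of 14, and fibroblast and matrix markers 0 higher and 1 lower of 20, beside 7.5% and 8.8% of all genes. Tendon markers had 3 of 12 higher, beside 7.5% of all genes, of which Kera, keratocan, was the largest (1.28 ± 0.31 log2, SE, adjusted p = 0.00176, edgeR). Without B6_1 alone, and without B6_1 and B6_6, 1 of 12 was called higher, and Kera kept its call (adjusted p = 0.0101 in the second fit). The share of these cells in each piece of muscle was not tested. In the complement list 1 of 25 was higher and 1 lower, so 8% were called, under the 16.3% of all genes. Both are membrane shields against complement: Cd59a was higher by 1.22 ± 0.09 log2 (SE, adjusted p = 4.18e-17, edgeR) and Cd55 lower by 0.87 ± 0.12 log2 (SE, adjusted p = 7.3e-08), each without overlap between strains. Cd55 has a near-identical copy, Cd55b.

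The called genes were spread over the genome. By chromosome the share ran from 10.9% on X to 22.6% on chromosome 17, which holds the MHC, leaving aside the 15 genes of the mitochondrial genome and the 9 of Y. Of 315 windows of 5 Mb with at least 20 tested genes, the median share was 15.4%, 22 windows lay under 5%, and 3 reached at least 40%. These 3 were chromosome 2 from 175000001 to 180000000 (22 of 44 genes, mostly predicted genes), chromosome 6 from 130000001 to 135000000 (10 of 21) and chromosome 4 from 145000001 to 150000000 (27 of 61). The last holds Rbp7, Pik3cd and Mtor. No window of 10 Mb reached 40%.

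Against the other 6 strains, the differences set NOD and B6 apart about equally often. Of the 929 called genes of at least 1 log2 unit, NOD alone had the highest or lowest mean of the 8 strains for 29.6%, B6 alone for 27%, both for 11.6% and neither for 31.8%. Over all genes tested these shares were 14.9%, 15.4%, 1.55% and 68.2%. Igtp, Irgm2, Gbp3, Usp18 and Ifih1 were lowest in NOD among the 8 strains, and for Igtp, Irgm2 and Usp18 B6 was also the highest. For Rsad2, B6 was the highest and NOD the fifth. The lists as wholes ranked otherwise by median summed level. For interferon-stimulated genes NOD was lowest (113 CPM), but WSB (209 CPM) and NZO (169 CPM) lay above B6 (160 CPM). For the GTPases Cast (74.4 CPM) and PWK (76.5 CPM) lay below NOD (126 CPM), and AJ (187 CPM) above B6 (182 CPM). For class II genes Cast (17.1 CPM) lay below NOD (42.8 CPM), and AJ (118 CPM) above B6 (92.8 CPM). Of the oxidative phosphorylation genes named above, B6 had the lowest mean for Atp5e, Sdhc and Uqcrfs1, and Cox6a2 was highest in NOD. By the median sum of that list, Cast (19389 CPM) lay above NOD (18094 CPM), and AJ (15218 CPM) below B6 (15299 CPM).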

How the data were processed

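Muscle RNA was sequenced from polyadenylated RNA with the KAPA mRNA HyperPrep kit after addition of ERCC spike-in RNA, per the labels' protocols. The authors deposited estimated counts per gene (19462 genes, 80.4% of values whole), a table of variance-stabilised log2 values, and gene positions in Mb as another annotation table. The submitters' processing notes name DESeq2 and GRCm38, while the counter and aligner were not given in the sources used here. GRCm38 is a build of a B6 substrain, and how NOD reads mapped to it was not examined.

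The expected counts were rounded to whole numbers, because estimated counts had been deposited where whole counts were planned for. All 61 libraries were fitted with strain as a factor in edgeR 4.0.16 (R 4.3.3; filterByExpr, TMM, quasi-likelihood F test), NOD was contrasted with B6, and p-values were adjusted by Benjamini-Hochberg over 16682 genes. Fold changes are log2 differences, NOD minus B6, and CPM values are TMM-scaled. Technical measures were compared by a two-sided exact permutation test over 6435 splits. On simulated counts with 200 of 16682 genes changed, the fit recovered 89% of genes changed 2-fold and 71% of those changed 1.5-fold, with 7 false calls. The changed genes were drawn only from those with higher counts, and no library was made to stand apart. These rates therefore do not cover genes with few counts or libraries such as B6_1, B6_5 and B6_6.

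Positions come from GENCODE M21, in which 19388 gene IDs were found, and 15555 of these had both ends equal to the deposited ones. Near-identical copies were searched for 950 genes with BLAST 2.17.0 (at least 95% identity over 200 bases and 50% of the shorter transcript). From called genes of at least 5 CPM, the rule named the 14 with the largest difference in each direction and the 6 with the largest F. It also named 4 such genes per direction with a copy. From the lists it named up to 2 called genes per direction, with no minimum level. All tested diabetes locus, strain variant and class II genes were included, whether called or not. Other genes named were chosen after their values were seen. The members and the gene lists were chosen with earlier results of these data known. Alternatives were the NOD and B6 libraries alone, each library left out, DESeq2 1.42.0, its size factors, limma 3.58.1 on the deposited log2 values, other filters, the replicate number as a block, and covariates. Fits without B6_1 and B6_6, with or without B6_5, were chosen after seeing the data. Results for some genes are not reported here.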

Additional observations from a re-analysis of the deposited data

Results flagged for a closer look

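Of 320 groups of values tested (160 named genes in each strain), 22 had a highest or lowest library whose gap to the nearest other took an unusual share of the group's range. Chance alone gives such a gap in about 1 group in 20. The gap concerned B6_5 in 6 genes, B6_1 in 5, NOD_4 in 4, NOD_3 in 3 and 4 other libraries in 1 each.

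In B6_5, Lars2 stood at 164394 CPM against at most 6712 CPM in the other B6 libraries, and mt-Rnr2 at 86982 CPM against at most 5362 CPM. Wdfy1 was at 12.2 CPM in that library, above its range of 6.75 to 8.92 CPM. Idh3b at 179 CPM, Cox8b at 69.6 CPM and H2-Ke6 at 9.93 CPM were the lowest B6 values, under 221, 106 and 13.8 CPM. B6_5 is the library with 46.3% of its counts in Rn18s-rs5.

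In B6_1, Icos reached 2.40 CPM, Slamf1 1.38 CPM, Tnfrsf9 0.424 CPM, Cd101 0.367 CPM and Cnp 18 CPM, against at most 0.627, 0.388, 0.119, 0.093 and 11.9 CPM in the other B6 libraries. Hist2h2aa2 was at 1.61 CPM in B6_6, and Nnt at 71.1 CPM in B6_3 against at most 50.6 CPM.

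In NOD_4, Tnfrsf12a, a receptor of injured muscle, stood at 92.4 CPM against 19.3 to 26 CPM, Dysf at 234 CPM against 118 to 139 CPM, Cd226 at 0.269 CPM and Cd59a at 26.1 CPM. In NOD_3, Ptprc was at 5.15 CPM, Stat4 at 0.375 CPM and H2-Oa at 0.0624 CPM, the last listed at 0 in the other NOD libraries. Pydc3 was lowest in NOD_7, at 0.116 CPM, and Lyz1 in NOD_8, at 0.277 CPM.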

How the results depend on the processing

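No gene called with all libraries was called in the opposite direction under any alternative fit. The count of called genes ran from 2333 to 2701 with 1 library left out, with 1123 to 1282 higher, 1210 to 1465 lower and 742 to 970 of at least 1 log2 unit. The stricter filter, which tested 9199 genes, called 1651 (789 higher, 862 lower, 187 of at least 1 log2 unit). The number of at least 1 log2 unit was 606 with the NOD and B6 libraries alone, 559 when B6_1 and B6_6 were also left out, and 167 when limma was run on the deposited stabilised values; the cause was not tested. Without B6_1, B6_5 and B6_6, 936 genes were called lower. DESeq2 called 2927 genes.

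Of 128 named genes called with all libraries, 89 kept their call without B6_1 and B6_6 and 81 without B6_5 as well. Signs turned for Igkc (0.01 log2) and Ccl5 (0.44 log2) without B6_1 and B6_6, and for Ccl5 (0.98 log2) and Lars2 (0.21 log2) without B6_5 too. They also turned for Lars2 in DESeq2 (0.10 log2) and without B6_5 (0.13 log2, with -2.58 to 0.13 log2 over single libraries left out). With copies added they turned for Hist2h2aa1 (0.30 log2) and H2-T22 (0.27 log2). In the 13 libraries alone no named call changed sign, and Ctss (0.44 log2 there) was not called with all libraries. The NOD minus B6 difference in the Rn18s-rs5 share turned to 0.368 percentage points without B6_5.

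With the replicate number as a block, 2627 genes were called (1302 higher, 1325 lower), 13 of 128 named calls were lost, and 5 lymphocyte markers were lower in place of 15. The numbers did not pair the samples: 4 of 7 same-numbered pairs had a correlation of deviations over 0.1 (range -0.34 to 0.45), and 1 correlated best with its own number.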
